A study of Mus musculus with 2 samples.

Results

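The Mir148 and Mir152 seed family is made up of 3 microRNA genes, Mir148a, Mir148b and Mir152, whose main mature products share a seed. They were picked out of the 1973 genes of the deposited tables by name, through the Ensembl identifiers in GENCODE, and all 3 were counted in both libraries. Each had more than the minimum of 10 counts used for testing. The libraries were microRNA libraries of molecules under 30 nt, made from total RNA of single B6NCrl mouse hearts collected on postnatal day 0. Per the sample descriptions, replicate 1 was the heart of pup 1 and replicate 2 the heart of pup 3, with 1 library per heart, no genetic change or treatment in the labels, and no second condition. The labels also give both samples the same donor identifier, and they were treated as hearts of separate pups on the strength of the descriptions. The spread between the 2 hearts therefore includes any difference between library preparations.

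A microRNA is cut from a hairpin precursor and guides a silencing complex to messenger RNAs, chiefly through its seed, bases 2 to 8 from its 5′ end. MicroRNAs with the same seed can recognise the same sites, and so are grouped as a family. The Mir148 and Mir152 family is best known for targeting the transcript of the maintenance DNA methyltransferase DNMT1 in human cells. Mir148a is also known as an abundant liver microRNA, and in mouse dendritic cells the family targets the kinase transcript Camk2a.

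The 3p sequences, on which the family is defined, are shown with the seed in capitals. They are RefSeq sequences on GRCm38.p6, the assembly of mm10.
miR-148a-3p: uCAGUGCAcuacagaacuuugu
miR-148b-3p: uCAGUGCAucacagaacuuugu
miR-152-3p: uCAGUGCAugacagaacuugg
The seed CAGUGCA is in these 3 of the 1679 mature microRNA names in the RefSeq table and in no other, so the table holds no further member. With positions counted from 1 at the 5′ end, miR-148b-3p differs from miR-148a-3p at 2 of 22 positions (C9U and U10C). miR-152-3p is 21 nt long and differs from miR-148a-3p at 3 of 21 positions (C9U, U10G and U20G), and from miR-148b-3p at 2 (C10G and U20G). The differences thus lie just after the seed and near the 3′ end.

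The opposite arms are shown because the deposited counts are per gene and do not separate the arms. Their bases 2 to 8 are in capitals.
miR-148a-5p: aAAGUUCUgagacacuccgacu
miR-148b-5p: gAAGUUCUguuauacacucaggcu
miR-152-5p: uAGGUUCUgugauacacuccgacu
On this arm Mir148a and Mir148b share the seed AAGUUCU, found in no other mature sequence of the table, whereas the seed AGGUUCU of miR-152-5p was found in that sequence alone. Compared from the 5′ end without gaps, miR-148a-5p differs from miR-148b-5p at 9 of 22 positions and from miR-152-5p at 10 of 22. miR-148b-5p and miR-152-5p differ at 5 of 24. Part of the difference between miR-148a-5p and miR-152-5p reflects their unequal length, since both end in the same run of 11 nt at shifted positions. The family therefore shares its seed fully on the 3p arm and in part on the 5p arm.

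A neighbouring seed family overlaps this one by an offset. Bases 3 to 8 of the 3 family members, AGUGCA, are bases 2 to 7 of miR-130a-3p, miR-130b-3p and miR-301a-3p, of which miR-130a-3p is shown with its own seed in capitals.
miR-130a-3p: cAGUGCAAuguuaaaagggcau
In all, 7 mature microRNAs of the table hold the 7 letters of the family seed shifted by 1 base. This is a match of letters and no statement about shared targets.

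The hairpins are shown with the 3p mature sequence in capitals, to place the arms in their precursors. Each was identical to the GENCODE transcript of its gene.
Mir148a: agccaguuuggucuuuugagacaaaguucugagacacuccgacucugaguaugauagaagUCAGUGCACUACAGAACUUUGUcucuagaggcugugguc
Mir148b: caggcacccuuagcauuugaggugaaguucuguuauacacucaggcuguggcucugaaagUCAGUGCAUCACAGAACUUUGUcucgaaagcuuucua
Mir152: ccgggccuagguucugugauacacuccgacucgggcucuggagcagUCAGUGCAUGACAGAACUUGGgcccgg
The Mir148a and Mir148b hairpins are 99 and 97 nt long and the Mir152 hairpin 73 nt. GC content was 45.5% in Mir148a, 45.4% in Mir148b and 61.6% in Mir152. In the minimum free energy fold, 19 of 22 bases of the 3p arm of Mir148a were paired, 17 of 22 in Mir148b and 19 of 21 in Mir152. The fold energies were -41, -30.9 and -43.5 kcal/mol in that order, for hairpins of unequal length. Between the annotated arms lie 16, 13 and 15 bases.

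**Figure D1:**
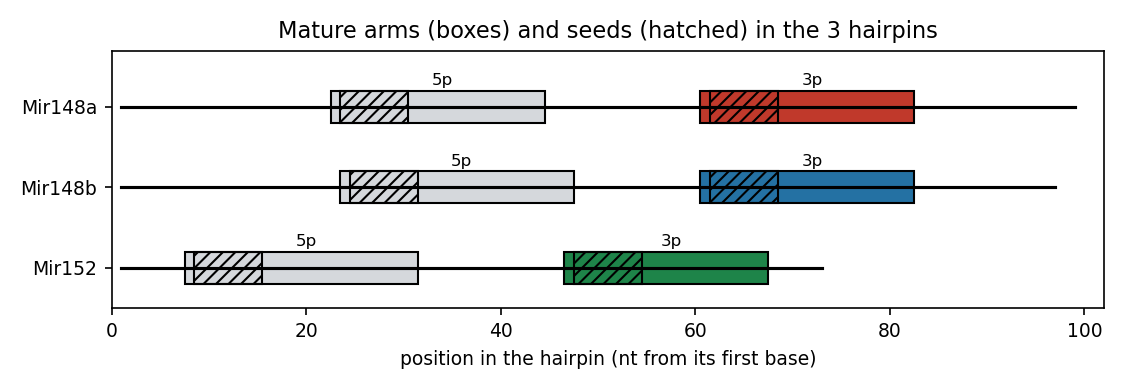
Position of the mature arms in the 3 hairpins, in nt from the first base of each hairpin on the x axis, with 1 row per gene. Boxes are mature sequences (coloured for 3p, grey for 5p) and hatching marks the seed; the 3p arms begin at base 61 in Mir148a and Mir148b and at base 47 in Mir152, and the shorter Mir152 hairpin of 73 nt has fewer bases outside the arms.

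The genes lie on 3 chromosomes and none is in a cluster with another microRNA. Mir148a (ENSMUSG00000065505.1) is intergenic, at chr6:51269812-51269910 on the minus strand of mm10, with the nearest annotated protein-coding gene, Nfe2l3, 163 kb away and the nearest microRNA gene 352 kb away. Mir148b (ENSMUSG00000065560.1) is at chr15:103285125-103285221 on the plus strand, in intron 1 of Copz1 (16159 nt in transcript Copz1-201), in all 4 annotated transcripts of that gene. Mir152 (ENSMUSG00000065515.1) is at chr11:96850393-96850465 on the plus strand, in intron 1 of Copz2 (676 nt in transcript Copz2-201), in 3 of 5 annotated transcripts. Copz1 and Copz2 encode the alternative zeta subunits of the coatomer, the coat of Golgi transport vesicles. Both intronic genes are read in the direction of their host. The nearest microRNA gene is 65.2 kb from Mir148b and 213 kb from Mir152.

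All 3 genes also have a gene of the heterochromatin protein 1 family and a gene of the Nfe2 transcription factor family near them. Cbx3 is 200 kb and Nfe2l3 163 kb from Mir148a. Cbx5 is 45.3 kb and Nfe2 26.7 kb from Mir148b. Cbx1 is 41.8 kb and Nfe2l1 20.4 kb from Mir152. These distances come from the annotation and carry no information on expression.

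The tables list reads that matched several places apart from the genes (35.9% of reads in replicate 1 and 34.6% in replicate 2), so a gene with a repeated sequence can be undercounted. This was checked against other annotated microRNA precursors only, and copies elsewhere in the genome were not searched for. By that check none of the 3 genes was marked. Their longest stretch in common with another annotated microRNA precursor that they do not overlap was 15 nt, between Mir148a and Mir148b, and 13 nt for Mir152, short of the 20 nt used as the mark and also of 16 nt. By comparison, 929 of 1894 precursors of counted genes shared 20 nt with another. The sources used here do not say how many mismatches the alignment allowed. On the 3p arm, reads of Mir148a and Mir148b are separated by 2 base differences. Those of Mir148b and Mir152 are also separated by 2, over the 21 positions compared.

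Sense-strand gene counts came to 6373797 in replicate 1 and 7630427 in replicate 2, and levels are CPM, that is counts per 1000000 sense-strand gene counts of the library. Levels were not divided by length, since the annotated mature products are all 21 to 24 nt long. The cardiac muscle markers Mir208a, Mir208b and Mir499 together had 122248 and 124984 CPM, as the heart label requires. Endothelial markers (Mir126a and Mir139) summed to 146855 and 125176 CPM, smooth muscle markers (Mir143 and Mir145a) to 94054 and 87684 CPM, erythroid markers (Mir451a, Mir144 and Mir486) to 1114 and 1379 CPM, and leukocyte markers (Mir223, Mir155 and Mir150) to 554 and 595 CPM. Hepatocyte markers (Mir122 and Mir192) summed to 117 and 118 CPM, and pancreas markers (Mir216a, Mir216b, Mir217 and Mir375) to 2.67 and 3.67 CPM. The 3 neuronal markers, Mir124a-1, Mir124a-2 and Mir124a-3, were at 0, but all 3 share 20 nt with another precursor. A whole heart is a mixture, in which fewer cells of a type and less RNA per cell cannot be told apart.

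Mir148a was the leading gene of the family. It had 11708 counts in replicate 1 and 13792 in replicate 2, or 1837 CPM (exact Clopper-Pearson 95% interval 1804 to 1870) and 1808 CPM (1777 to 1838). The mean was 1822 ± 20.8 CPM (SD, n = 2), rank 51 of 1973 genes. The 2 hearts thus gave nearly the same level, with overlapping counting intervals.

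Mir152 had 1547 and 1522 counts, or 243 CPM (231 to 255) in replicate 1 and 199 CPM (190 to 210) in replicate 2. Its mean was 221 ± 30.6 CPM (SD, n = 2). The counting intervals of the 2 hearts did not overlap, and replicate 1 was the higher. Its rank was 121 in replicate 1 and 127 in replicate 2.

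Mir148b had 1285 and 1641 counts, or 202 CPM (191 to 213) in replicate 1 and 215 CPM (205 to 226) in replicate 2. Its mean was 208 ± 9.51 CPM (SD, n = 2). Here replicate 2 was the higher, and the counting intervals overlapped. Its rank was 126 in replicate 1 and 124 in replicate 2.

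By mean level the order was Mir148a, Mir152, Mir148b. The means of Mir152 and Mir148b differed by less than the SD of Mir152, so these neighbours in the order were not separated beyond their spread. All 3 genes had 0 counts on the opposite strand in both libraries, which allows up to 3 counts, or 0.471 CPM in replicate 1 and 0.393 CPM in replicate 2. Intervals and these limits cover counting error only.

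Together the family took 14540 counts in replicate 1 and 16955 in replicate 2, or 0.228% and 0.222% of the sense counts, a mean of 0.225% ± 0.00419 (SD, n = 2). Of the family counts, Mir148a held 80.5% in replicate 1 and 81.3% in replicate 2, with exact 95% intervals of 79.9 to 81.2 and 80.8 to 81.9. Mir152 held 10.6% (10.1 to 11.2) and 8.98% (8.55 to 9.42). Mir148b held 8.84% (8.38 to 9.31) and 9.68% (9.24 to 10.1). The gene outside any host held most of the family's gene counts, both arms together, in each heart, and the 2 genes in coatomer introns held similar, smaller shares.

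**Figure D2:**
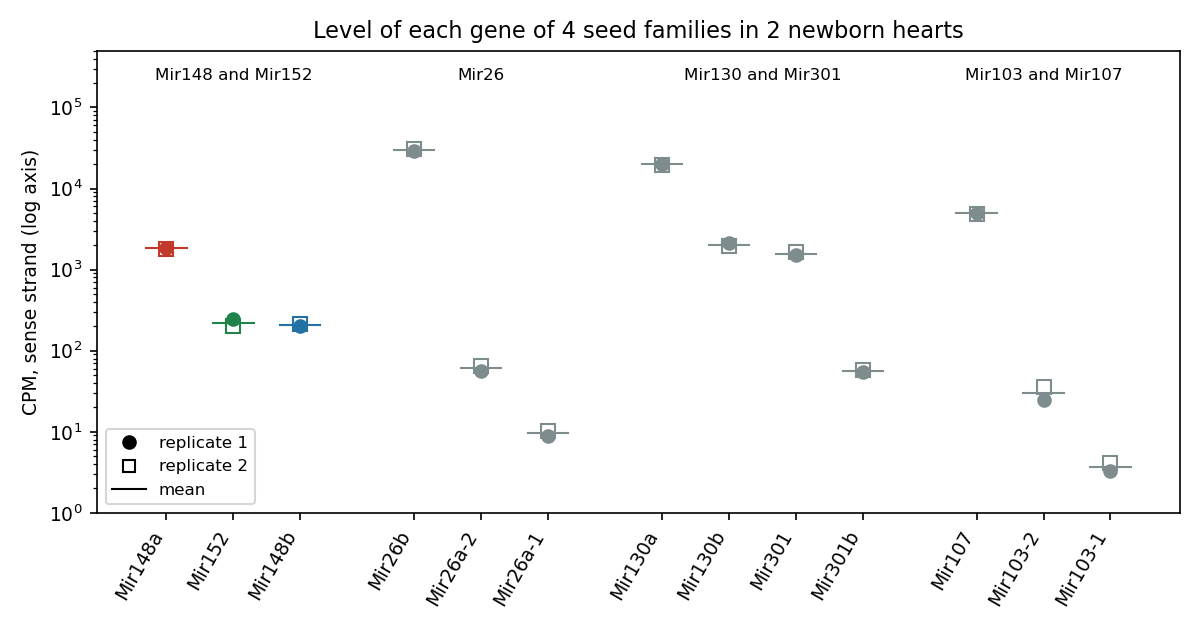
Sense-strand level in CPM (log y axis) of each gene of 4 seed families, with a filled circle for replicate 1, an open square for replicate 2 and a line for their mean. Mir148a lies near 1822 CPM with Mir152 and Mir148b close together near 221 and 208 CPM, while in the Mir26 family and the Mir103 and Mir107 family the lower genes lie at 61.1 CPM or less. Those lower genes share 20 nt with another precursor, so their levels are uncertain.

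Within each library, Mir148a exceeded Mir148b by 9.11-fold in replicate 1 (8.60 to 9.66, exact 95% interval) and 8.40-fold in replicate 2 (7.98 to 8.85). It exceeded Mir152 by 7.57-fold in replicate 1 (7.18 to 7.99) and 9.06-fold in replicate 2 (8.59 to 9.56), intervals that did not overlap. The mean log2 ratio of Mir148a was 3.13 ± 0.08 over Mir148b and 3.05 ± 0.18 over Mir152 (SD, n = 2). Mir148a was thus several-fold above each of the others in both hearts, and the ratio to Mir152 was the more variable.

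The order of Mir148b and Mir152 was not the same in the 2 hearts. The ratio of Mir148b over Mir152 was 0.831 in replicate 1 (0.771 to 0.895, exact 95% interval) and 1.08 in replicate 2 (1.005 to 1.157). The mean log2 ratio was -0.08 ± 0.27 (SD, n = 2), so the spread between hearts exceeded the mean. The counts were also divided by the length of the 3p mature sequence, a choice made after seeing the data. The ratio was then 0.793 in replicate 1 (0.736 to 0.854) and 1.03 in replicate 2 (0.959 to 1.10), whose interval includes 1. The gene counts hold both arms, so a division by the 3p length alone cannot decide the order.

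**Figure D3:**
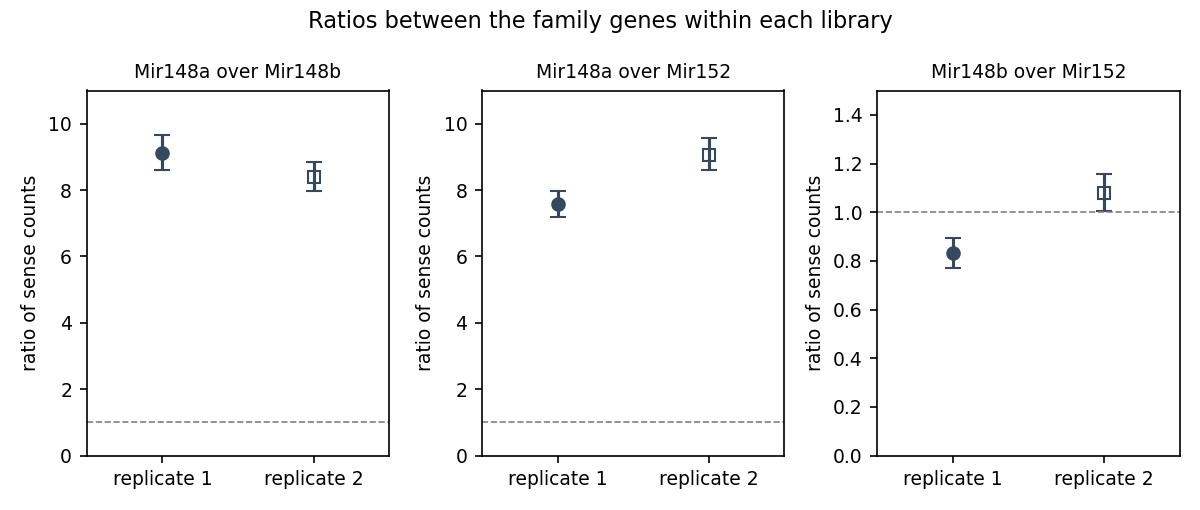
Ratio of sense counts (y axis) between each pair of family genes in replicate 1 (filled circle) and replicate 2 (open square), with exact 95% Clopper-Pearson intervals for counting error and a dashed line at 1. The ratios of Mir148a over the other genes lie between 7.57 and 9.11, whereas Mir148b over Mir152 lies below 1 in replicate 1 (0.831) and above 1 in replicate 2 (1.08).

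The 2 hearts were then compared gene by gene with a 2-sided exact binomial test given the library totals, over the 435 genes with 10 or more counts, with Benjamini-Hochberg adjustment. This compares 2 libraries, not conditions. Mir152 was 1.22-fold higher in replicate 1, a log2 ratio of replicate 1 over replicate 2 of 0.28 (exact binomial adjusted p = 3.31e-07). Mir148a had a log2 ratio of 0.02 (exact binomial adjusted p = 0.395) and Mir148b of -0.09 (exact binomial adjusted p = 0.214), neither past the threshold of 0.05. Thus 1 of the 3 genes passed, in the direction of replicate 1, where 31.0% of all genes tested passed in either direction, 12.0% toward replicate 1 and 19.1% toward replicate 2. With 1 of 3 genes against that background, the call is no result about the family.

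The difference of Mir152 was among the larger ones of well-counted genes. Among the 134 genes with 1000 or more counts in each library, of which 67.9% passed the same test, the median absolute log2 ratio was 0.11 and the upper quartile 0.21. Of these, 19 had a larger absolute ratio than Mir152, 74 a larger one than Mir148b and 115 a larger one than Mir148a. Mir148a was therefore among the well-counted genes with the smallest ratios between the hearts. The call of Mir152 was lost when a spread between libraries was allowed for, with an adjusted p of 0.995 when edgeR's exact test was run with the coefficient of variation between libraries set to 0.1. Mir148a passed when the most abundant gene, Mir126a, was left out of the totals, at a log2 ratio of 0.060 (exact binomial adjusted p = 0.00407).

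The endothelial marker Mir126a, which alone makes up over 97.6% of the endothelial list in each library, was higher in replicate 1 like Mir152, at a log2 ratio of 0.24. Mir139, the other marker of that list, was at -0.13. Some other lists also held markers in both directions. Mir208a (cardiac muscle) was at 0.36 and Mir144 (erythroid) at 0.65, but Mir208b (cardiac muscle) was at -0.09 and Mir451a (erythroid) at -0.41. Mir499 (cardiac muscle) was at 0.08 and Mir486 (erythroid) at -0.001. Both smooth muscle markers had positive ratios, Mir143 at 0.10 and Mir145a at 0.01. Of the leukocyte markers, Mir223 was at 0.05, Mir150 at 0.13 and Mir155 at -0.58. Whether the direction of Mir152 goes with any of these lists was not tested. The hepatocyte marker Mir122 had 35.8 CPM in replicate 1 and 44.6 CPM in replicate 2, and Mir192, the other hepatocyte marker, had 81.1 and 73.0 CPM, all far below Mir148a. The part of these cell types in the family's levels was not tested.

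**Figure D4:**
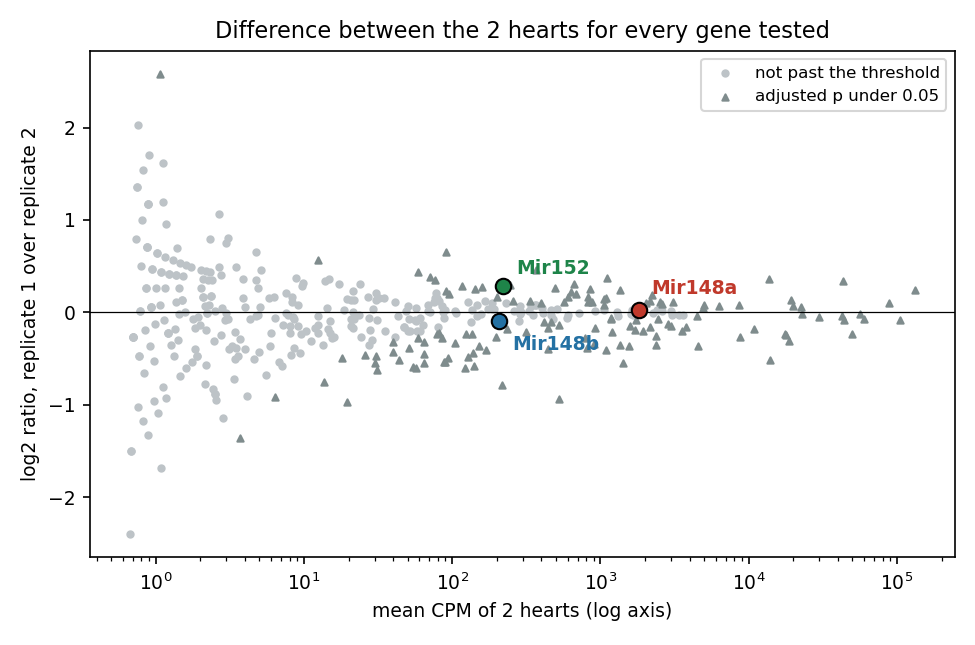
Log2 ratio of replicate 1 over replicate 2 (y axis) against mean CPM (log x axis) for the 435 genes tested, with triangles for genes past an adjusted p of 0.05 and circles for the others. Mir152 lies above the line at 0.28, Mir148a on it at 0.02 and Mir148b just below it at -0.09, all within the cloud of other genes.

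The genes nearest to each member in log2 CPM over the 2 libraries show where the family stands. Nearest to Mir148a were Mir487b at 1716 ± 12.4 CPM, Mir127 at 1717 ± 8.58 CPM and Mir188 at 1936 ± 44.0 CPM (SD, n = 2). Nearest to Mir148b were Mir671 at 197 ± 25.6 CPM, Mir134 at 193 ± 3.53 CPM and Mir1193 at 199 ± 15.97 CPM. Nearest to Mir152 were Mir467c at 220 ± 28.0 CPM, Mir101a at 231 ± 11.8 CPM and Mir574 at 243 ± 35.7 CPM. Of these 9 genes, Mir487b, Mir467c and Mir101a share 20 nt with another precursor, so their counts are uncertain. Likeness over 2 libraries says no more than that the levels were close.

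Set beside 3 other small seed families, the Mir148 and Mir152 family was the lowest in sum, at 2252 ± 41.9 CPM. The Mir130 and Mir301 family, whose seed overlaps by the offset above, summed to 23543 ± 608 CPM, the Mir26 family to 29980 ± 742 CPM and the Mir103 and Mir107 family to 4981 ± 109 CPM (SD, n = 2). In the Mir130 and Mir301 family Mir130a held 84.8% of the counts in replicate 1 and 84.1% in replicate 2, close to the share of Mir148a in its own family. Mir26b held 99.8% in each library and Mir107 99.5% and 99.2%, but Mir26a-1, Mir26a-2, Mir103-1, Mir103-2 and Mir107 share 20 nt with another precursor and their shares are uncertain. From the highest to the lowest gene the levels spanned 3.13 log2 units in the Mir148 and Mir152 family and 8.48 in the Mir130 and Mir301 family. These families were set side by side as a description and the differences were not tested.

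Other microRNAs known to target DNA methyltransferase transcripts in human cells were listed for context. Of 8 such genes, 3 were higher in replicate 1 past the threshold, 1 was higher in replicate 2 and 4 did not pass, against 12.0% of all 435 genes tested that passed toward replicate 1 and 19.1% toward replicate 2. The median log2 ratio was 0.11 in the list and -0.02 over all genes tested. These counts describe the list and were not tested. Calls were more frequent among well-counted genes, of which 67.9% of 134 with 1000 or more counts in each library passed. All 4 genes of the list that passed had more than 1000 counts in each library. Mir29c and Mir101a also had more than 1000 and did not pass. Mir29a had 427 CPM in replicate 1 and 311 CPM in replicate 2, Mir101b had 1473 and 1247 CPM, and Mir143 had 91427 and 85077 CPM. Mir342 was the gene higher in replicate 2, at 1157 CPM in replicate 1 and 1693 CPM in replicate 2. Mir29c (174 and 160 CPM), Mir101a (240 and 223 CPM), Mir29b-1 (4.24 and 4.46 CPM) and Mir29b-2 (1.41 and 0.917 CPM) did not pass. Mir29b-1, Mir29b-2, Mir29c, Mir101a and Mir101b share 20 nt with another precursor, so their levels are uncertain. Among the genes of the list without such a stretch, Mir148a stood above Mir29a and Mir342 and below Mir143. It was also above the counted levels of the 5 genes that share 20 nt, but these can be undercounted. The same limit holds for Mir29c and Mir101a, whose counted levels were near those of Mir148b and Mir152.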

How the data were processed

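Both libraries were deposited as tables of read counts per gene, whole numbers with no normalization. The authors counted on mm10 with GENCODE M4, 1 alignment per table, per the accompanying text files. The sources used here do not name the aligner, the counter, their settings or the trimming. The tables have 3 columns of counts without a header. In gene rows column 2 of the file is the sum of the others, and column 3, with 92.9% of gene counts in replicate 1 and 92.8% in replicate 2, was taken as the strand of the gene. Totals leave out the rows without a gene: 12.6% and 15.5% of reads were unmapped, 35.9% and 34.6% matched several places, and 1.93% and 2.28% fell in no gene.

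CPM was computed here on the sense totals. Names and positions came from GENCODE M21, also mm10, which matched 1894 of 1973 identifiers (the others had 0 sense counts), and sequences from RefSeq on GRCm38.p6, in which all 3 members and their 6 mature sequences were found. With 1 library per heart no edgeR quasi-likelihood fit across replicates was possible, so hearts were compared with exact binomial tests (10 or more counts together, threshold 0.05, 0.5 counts added for log2 ratios). These tests were tried on simulated data. They allow for counting error only, so a spread between the real libraries is not covered. Named genes were the members, the 3 other genes nearest to each, the comparison families and the methyltransferase list. Members and lists were chosen with earlier results of these data known. Alternatives were other strands, totals, scalings (edgeR TMM, DESeq2 size factors), count minimums and pseudocounts, a preset spread and each library alone. The software was edgeR 4.0.16 and DESeq2 1.42.0 in R 4.3.3, ViennaRNA 2.7.2, Python 3.11.15 with SciPy 1.17.1 and pandas 2.3.3, and matplotlib 3.10.9.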

Additional observations from a re-analysis of the deposited data

How the results depend on the processing

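No paired analysis was possible because there is 1 group. Shares and ratios between the genes could not depend on scaling, which cancels within a library. Counting both strands could not change them either, since Mir148a, Mir148b and Mir152 had 0 counts on the opposite strand in each library. These alternatives therefore did not test the shares and ratios. With both-strand counts Mir148a had 1691 CPM and Mir148b 193 CPM. With the most abundant gene left out of the totals the levels were 2103 CPM for Mir148a, 240.3 CPM for Mir148b and 255 CPM for Mir152. On the total of all reads they were 822, 93.9 and 99.9 CPM. With each library alone, the log2 ratio of Mir148b over Mir152 ran from -0.27 to 0.11 and so changed direction; replicate 2 alone gave the positive value. The difference of Mir152 between hearts kept its direction, at 0.28 with the edgeR exact test at preset coefficients of variation of 0.1 and 0.2, but not its call (adjusted p = 0.995 and 1; over all 10 alternatives 6.2e-09 to 1). At those presets 1 gene passed (29 at an unadjusted p under 0.05) and 0 passed (4 unadjusted), against 135 in the exact binomial test. Mir148a passed in 1 of 10 alternatives, without the most abundant gene, at 0.060; Mir148b passed in 0 of 10 alternatives, at adjusted p of 0.149 to 1. The alternatives with pseudocounts of 1 and 10 could not change a call, since pseudocounts enter only the log2 ratios. Differences between animals and between library preparations cannot be told apart. The difference between hearts has no value with a library left out.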
